A study of Mus musculus with 10 samples.

Results

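The expression of 9 genes that handle glutamine and glutamate was examined in tumour-associated macrophages from mice given a glutamine antagonist or its vehicle. The genes were Glul, Glud1, Got1, Got2, Gpt2, Slc1a5, Slc38a1, Slc38a2 and Gclc. They were taken by symbol from the 46956 named loci of the deposited tables, and all 9 were found and were abundant enough to be tested among 12500 loci.

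Cells of 4T1, a murine breast tumour line, were injected at 100000 per mouse into a mammary fat pad of mice of the Balb/cJ strain. The 5 treated samples came from mice given JHU083 at 1 mg/kg on days 7 to 13, and the 5 control samples from mice given vehicle (PBS). The body converts JHU083 to DON, which resembles glutamine and inactivates many enzymes that use it. Tumours were taken on day 14 in both groups, and live cells positive for CD45, CD11b and the Adgre1 product, a surface antigen of macrophages, and negative for CD8, Ly6C and Ly6G were sorted from them. The ages of the mice, and whether each sample was a single mouse, are not given, so the p-values measure the spread between samples.

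Glutamine enters cells through carriers such as those encoded by Slc1a5, Slc38a1 and Slc38a2. Inside the cell it is converted to glutamate, and glutamine synthetase, encoded by Glul, makes it again from glutamate and ammonia. Glutamate passes its carbon to the tricarboxylic acid cycle through glutamate dehydrogenase (Glud1) or through transaminases (Got1, Got2, Gpt2), and it is a building block of glutathione, whose first step is catalysed by the product of Gclc. In macrophages this traffic feeds the cycle and redox defence, and glutamine synthetase has been tied to how the cells polarise.

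The libraries held 11147723 to 14575720 fragments in vehicle and 13638169 to 15740488 in JHU083. All 8 macrophage markers examined were detected, with a summed level of 14274 to 17447 CPM in vehicle and 18595 to 24581 CPM in JHU083. CPM is the fragment count scaled to the normalised library size. Of the 8, 4 were called higher (Adgre1, Csf1r, Mertk and Lyz2), and C1qa, Cd68, Itgam and Fcgr1 were not called. Lyz2 (6980 and 10458 CPM on average) and C1qa (4921 and 5462 CPM) made up most of the sum. Fcgr1 averaged 313 CPM in vehicle and 270 CPM in JHU083. No marker of the other cell types examined was at 0 in every sample. All 7 tumour epithelial markers (Epcam, Cdh1 and 5 keratins) were lower in JHU083, and their sum was 281 to 600 CPM in vehicle and 98.5 to 202 CPM in JHU083. Of 5 fibroblast markers 4 were lower, and their sum was 98.5 to 219 and 24.5 to 110 CPM. Of 3 endothelial markers 1 (Pecam1) was lower, and their sum was 122 to 209 and 33.9 to 82.1 CPM. Pecam1 made up most of this sum (151 and 52.5 CPM on average), and Cdh5 and Kdr did not pass the test. Of 6 cell cycle markers 5 were lower, and their sum was 420 to 467 and 190 to 294 CPM. Of 6 T cell markers 1 was higher (Cd4, which is not restricted to T cells, 14.7 and 31.8 CPM on average). The sum of the 6 was 15.9 to 19.6 and 28.0 to 45.1 CPM, and the other 5 averaged at most 2.01 CPM in either group. The NK cell sum was 23.1 to 27.8 and 9.19 to 17.6 CPM, with 1 of 3 (Klrk1) lower. Among 8 neutrophil markers S100a8 and S100a9 were lower and Csf3r higher. Of 5 eosinophil markers 3 were tested, and 1 (Siglecf, 3.19 and 5.91 CPM on average) was higher. Of 4 B cell markers only Cd79b was abundant enough to be tested. It was higher at low levels, 2.75 and 3.93 CPM on average (edgeR adjusted p = 0.0498). Mitochondrial transcripts took 1.53% to 2.09% of fragments in vehicle and 2.14% to 2.44% in JHU083. The ribosomal RNA loci Rn18s-rs5 and Gm42418 stood at 0 in vehicle replicates 2, 4 and 5 and in JHU083 replicates 1 and 3. In the other 5 libraries they held 2.87% to 5.59% of fragments, so values within each of these sets of samples are given beside the members that passed the test. In these bulk samples, fewer cells of a type and less RNA per cell cannot be told apart.

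Glul, Gpt2 and Gclc were higher in the JHU083 samples than in vehicle, and Slc1a5 and Got2 were lower. Glud1, Got1, Slc38a1 and Slc38a2 did not pass the test. Thus 3 of the 9 genes were higher and 2 lower by the quasi-likelihood test of edgeR, at a Benjamini-Hochberg adjusted p under 0.05 over all 12500 loci. Among all loci tested, 36.7% were called, 18.4% higher and 18.3% lower. This even split depended on the scaling: with library totals 1564 loci were higher and 3141 lower, and the members were again 3 higher and 2 lower. The groups did not overlap for 4 of the 9 genes, against 22.3% of all loci. Of these, 2 lay above (11.2% of all loci) and 2 below (11.1%). The median log2 fold change was 0.13 over the 9 genes and 0.01 over all loci.

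**Figure D1:**
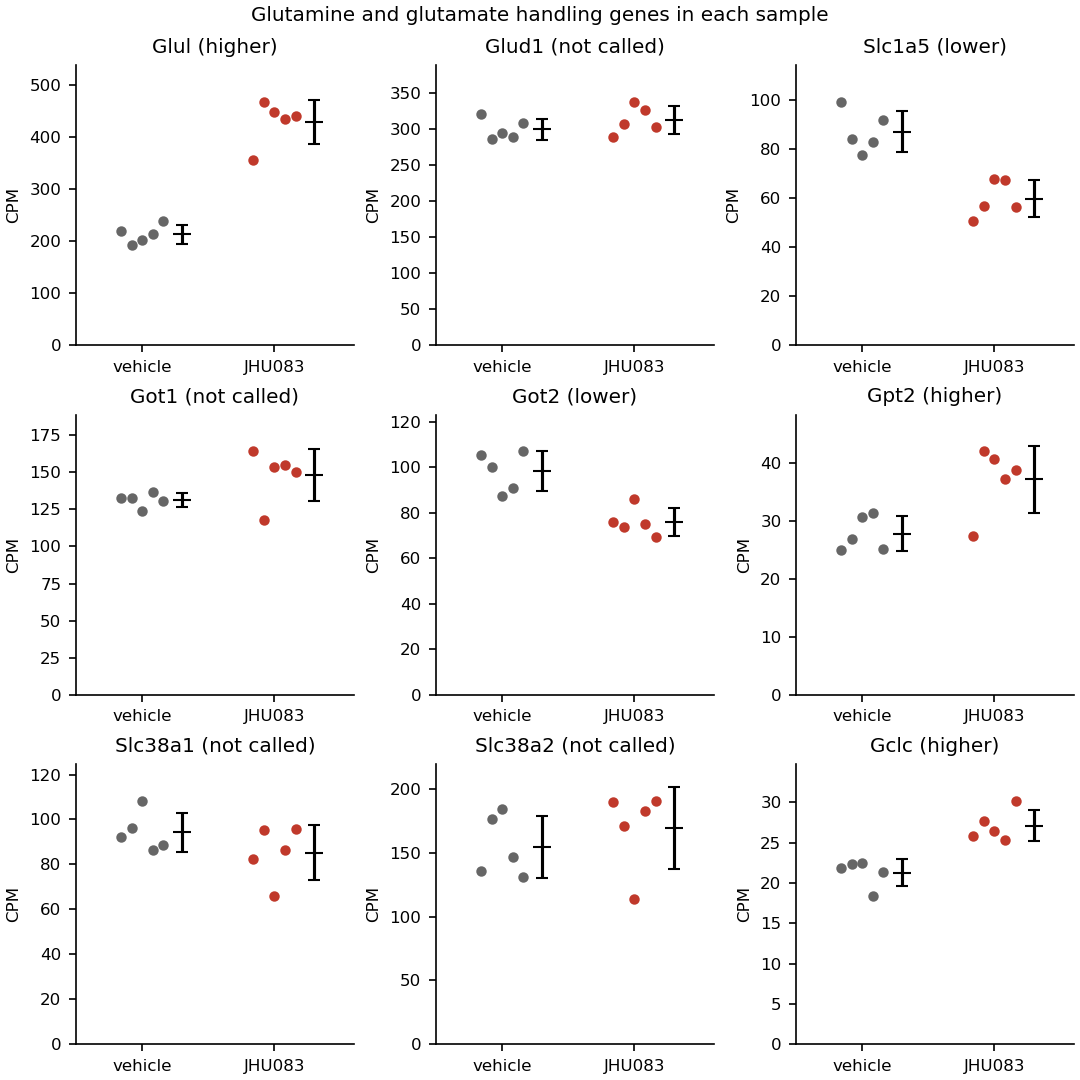
Level of each of the 9 genes in every sample, in CPM (vertical axes, starting at 0), for vehicle (grey) and JHU083 (red); points are samples, and the bar beside them is the mean ± SD (n = 5). Glul lies between 192 and 238 CPM in vehicle and between 356 and 467 CPM in JHU083, while the groups overlap for Glud1, Got1, Gpt2, Slc38a1 and Slc38a2.

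Glul, the gene of glutamine synthetase, showed the largest change of the 9 genes. It lies on chromosome 1 (153899944 to 153909723, plus strand, GENCODE M21 on GRCm38). In the 5 vehicle samples it had 219, 192, 201, 214 and 238 CPM, and in the 5 JHU083 samples 356, 467, 447, 434 and 439 CPM. Every JHU083 sample lay above every vehicle sample, and JHU083 replicate 1 was the lowest of its group. The mean rose from 213 ± 17.6 to 428 ± 42.6 CPM (SD, n = 5), a 2.02-fold change, or 1.01 ± 0.08 on the log2 scale (SE, edgeR adjusted p = 2.79e-06). The median absolute log2 fold change of all loci was 0.26. Within the samples with the ribosomal loci at 0 the log2 fold change of Glul was 0.91 (adjusted p = 0.0066), and within the others it was 1.08 (adjusted p = 0.00029).

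The tables list Glul together with a microRNA gene, Mir8114, as 1 locus. The microRNA hairpin (chr1:153899926-153900036, plus strand) begins 18 bases before the annotated start of Glul and covers its first 93 bases, so fragments there cannot be assigned to either gene. The mature microRNA from this hairpin is shown because it shares the row of the gene that changed most. It is from RefSeq on GRCm38.p6 (chr1:153899989-153900009), with the seed, bases 2 to 8, in capitals.
mmu-miR-8114: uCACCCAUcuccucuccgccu

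The level per gene length followed the count in all but 1 sample. The authors' deposited FPKM for this locus was 77.4, 69.0, 71.9, 78.7 and 84.5 in the 5 vehicle samples. In JHU083 it was 130, 176, 161, 343 and 166. JHU083 replicate 4 thus stood far above its group in FPKM, whereas its 5678 fragments (434 CPM) lay inside the group's range. Its FPKM per CPM was 2.18 times that of the median sample, against 0.98 to 1.04 in the other 9 samples. In each of Gclc, Slc38a1 and Slc38a2 the same quotient stayed within 0.99 to 1.01 in all 10 samples, and it ranged from 0.79 to 1.17 for Gpt2 and from 0.91 to 1.19 for Slc1a5. Fold changes are therefore given from fragment counts. The cause of the divergent FPKM values was not tested.

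**Figure D2:**
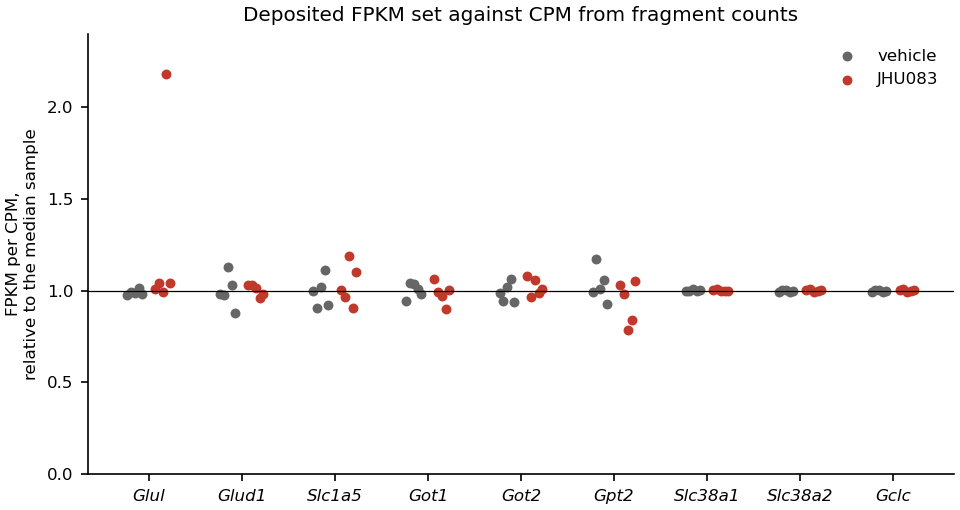
Deposited FPKM divided by CPM from fragment counts, relative to the median sample of each gene (vertical axis, starting at 0), for the 9 genes (horizontal axis) in vehicle (grey) and JHU083 (red) samples. A value of 1 means that FPKM and count moved together; 1 JHU083 sample stands at 2.18 for Glul, and the other points lie between 0.79 and 1.19.

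Ordered by FPKM in vehicle, the scale on which genes can be set against each other, Glud1 stood highest, with a median of 123. Got1 (82.5) and Glul (77.4) followed, and the ranges of these 2 genes overlapped. Got2 (40.7), Slc1a5 (37.4) and Slc38a2 (30.3) formed a lower run in which neighbours overlapped. Gpt2 (12.1) and Slc38a1 (11.8) also overlapped, and Gclc was lowest at 6.20. In JHU083 the order differed at the top, where Glul had a median of 166 FPKM and Glud1 130, with overlapping ranges. Slc38a2 (38.0) stood above Got2 (31.2) and Slc1a5 (27.1) there, again with neighbours overlapping.

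The neighbours of Glul in the pathway include the genes that break glutamine and glutamate down. Gls2, which encodes the liver-type enzyme that splits glutamine, was scarce, with at most 15 fragments in a sample. It was called lower close to the threshold, from 0.95 ± 0.24 to 0.47 ± 0.23 CPM (SD, n = 5, edgeR adjusted p = 0.0487). Its groups overlapped (vehicle 0.68 to 1.30, JHU083 0.23 to 0.82 CPM). The lowest JHU083 level lay under 0.269 CPM, where loci cannot be compared at these depths. Glud1 (chromosome 14, 34310727 to 34345265, plus strand) did not pass the test. It had 321, 286, 294, 288 and 309 CPM in vehicle and 289, 306, 338, 326 and 303 CPM in JHU083, a log2 fold change of 0.06 with a 95% interval from -0.08 to 0.20 (edgeR adjusted p = 0.498). The groups overlapped over most of their range, and the sign turned with scaling to library totals (-0.021). Leaving out 1 sample at a time gave 0.033, without JHU083 replicate 3, to 0.086.

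To ask whether related genes changed unequally, the log2 ratio of their CPM was formed within each sample for 8 pairs, and the group means were compared by exact two-sided permutation tests with Benjamini-Hochberg adjustment over the 8. Of these pairs 7 are described. With 5 samples against 5 the smallest p possible is 0.0079. Glul relative to Glud1 rose by 0.95, from -0.50 ± 0.09 to 0.45 ± 0.12 (SD, n = 5, exact permutation p = 0.0079, adjusted p = 0.0159). This ratio of counts, not per length, was below 0 in every vehicle sample and above 0 in every JHU083 sample. Within the samples with the ribosomal loci at 0 and within the others, the ratio of Glul to Glud1 differed by 0.81 and 1.07.

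**Figure D3:**
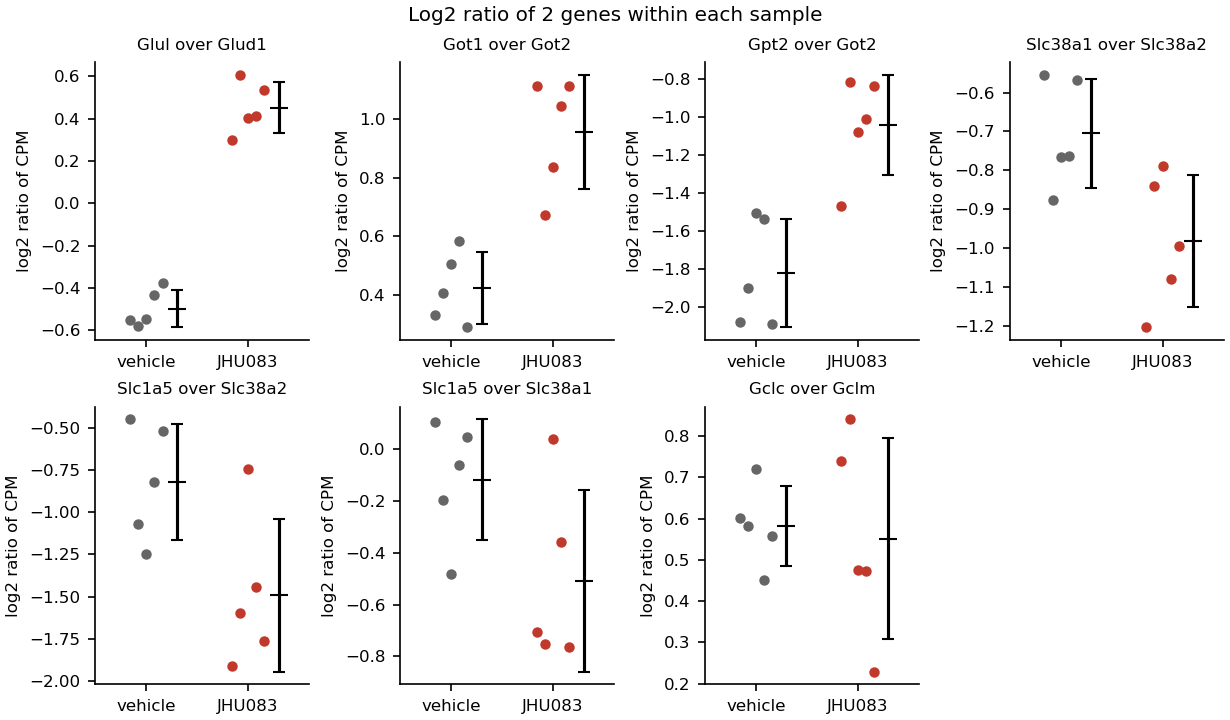
Log2 ratio of the CPM of 2 genes within each sample (vertical axes, which do not start at 0), for vehicle (grey) and JHU083 (red); points are samples and bars the mean ± SD (n = 5). The groups are separate for Glul over Glud1, Got1 over Got2 and Gpt2 over Got2, and overlap for the other 4 pairs.

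Among the transaminases, Got2 fell and Gpt2 rose. Got2 encodes the mitochondrial aspartate aminotransferase, which works with its cytosolic counterpart Got1 in the malate-aspartate shuttle. Got2 (chromosome 8, 95864134 to 95888547, minus strand) had 106, 100, 87.4, 91.1 and 107 CPM in vehicle and 76.0, 74.0, 86.0, 75.0 and 69.2 CPM in JHU083. The groups did not overlap, but the highest JHU083 sample, replicate 3, came close to the lowest vehicle sample. The log2 fold change was -0.37 ± 0.08 (SE, edgeR adjusted p = 0.0032). Within the samples with the ribosomal loci at 0 it was -0.29 and did not pass (adjusted p = 0.184), and within the others it was -0.42 (adjusted p = 0.0321).

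Got1 (chromosome 19, 43499752 to 43524605, minus strand) did not pass the test. It had 133, 133, 124, 137 and 131 CPM in vehicle and 164, 118, 154, 155 and 150 CPM in JHU083. In JHU083, 4 samples lay above every vehicle sample and replicate 2 lay below every one. The log2 fold change was 0.17 with a 95% interval from -0.01 to 0.35 (edgeR adjusted p = 0.123), and without JHU083 replicate 2 it was 0.24 and passed (adjusted p = 0.0104). The pair changed unequally: Got1 relative to Got2 rose by 0.53, from 0.42 ± 0.12 to 0.96 ± 0.19 (SD, n = 5, exact permutation p = 0.0079, adjusted p = 0.0159), and the groups did not overlap. Within the samples with the ribosomal loci at 0 and within the others, the ratio differed by 0.55 and 0.52.

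Gpt2, the mitochondrial alanine aminotransferase, makes alanine and 2-oxoglutarate from pyruvate and glutamate. It lies on chromosome 8 (85492576 to 85527560, plus strand). It had 24.9, 26.8, 30.7, 31.3 and 25.1 CPM in vehicle and 27.3, 42.0, 40.6, 37.2 and 38.7 CPM in JHU083. In JHU083, 4 samples lay above every vehicle sample, and replicate 1, which was also lowest for Glul, lay within the vehicle range. The log2 fold change was 0.42 ± 0.12 (SE, edgeR adjusted p = 0.0121). The call was lost on the deposited FPKM, with 0.27 (limma adjusted p = 0.157) at a pseudocount of 0.1, and within the samples with the ribosomal loci at 0, with 0.30 (edgeR adjusted p = 0.365); within the other samples it was 0.49 (adjusted p = 0.028). Gpt2 relative to Got2 rose by 0.78, from -1.82 ± 0.28 to -1.04 ± 0.26 (SD, n = 5, exact permutation p = 0.0079, adjusted p = 0.0159), with differences of 0.57 and 0.90 in the same sets of samples.

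RefSeq promoter windows on GRCm38.p6, from 250 bases before to 50 after the start, were at hand for 6 of the 9 genes: Glul, Glud1, Got1, Got2, Gpt2 and Slc38a2. The 180 bases before the start are shown, 5′ to 3′ on the strand of the gene, for Glul and Gpt2, which rose, and for Got1, which rose relative to Got2. Matches to CCAAT and GGGCGG on either strand are in capitals. The stretches are chr1:153899749-153899928 (plus strand), chr8:85492396-85492575 (plus strand) and chr19:43524606-43524785 (minus strand).
Glul: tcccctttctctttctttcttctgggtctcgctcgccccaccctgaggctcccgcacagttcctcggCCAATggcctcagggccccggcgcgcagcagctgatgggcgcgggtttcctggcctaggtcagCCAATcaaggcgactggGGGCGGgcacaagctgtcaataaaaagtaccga
Gpt2: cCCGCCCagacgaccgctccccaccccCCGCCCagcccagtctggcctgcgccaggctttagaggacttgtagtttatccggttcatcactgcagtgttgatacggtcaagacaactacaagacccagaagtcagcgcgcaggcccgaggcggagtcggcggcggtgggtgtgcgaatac
Got1: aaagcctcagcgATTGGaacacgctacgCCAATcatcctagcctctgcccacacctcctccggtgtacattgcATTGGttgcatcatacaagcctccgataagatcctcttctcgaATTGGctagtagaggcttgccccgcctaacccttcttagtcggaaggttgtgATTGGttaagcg

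In these stretches Got1 had 5 matches to CCAAT, Glul 2 and Gpt2 0. Glul had 1 match to GGGCGG and Gpt2 had 2. Over the whole 300-base window, CCAAT was also without a match in Glud1, Got2 and Slc38a2. Of all 32851 promoter windows in the table, 37.4% held CCAAT and 35.7% held GGGCGG on either strand. CACGTG, present in 7.15% of all windows, had no match in the 6 genes, and TATAAA, present in 13.6%, matched only in Got2. These matches describe the letters and do not mark a bound site, and genes that rose and genes that did not pass both held them.

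Of the glutamine carriers at the plasma membrane, Slc1a5 fell. It encodes ASCT2, a sodium-dependent exchanger of neutral amino acids and a main entry route for glutamine in many cells. Slc1a5 (chromosome 7, 16781340 to 16798274, plus strand) had 99.1, 83.8, 77.5, 82.7 and 91.5 CPM in vehicle and 50.5, 56.6, 67.8, 67.2 and 56.3 CPM in JHU083. All JHU083 samples lay below all vehicle samples, with replicate 1 the lowest. The log2 fold change was -0.54 ± 0.10 (SE, edgeR adjusted p = 0.00075). Within the samples with the ribosomal loci at 0 it was -0.54 (adjusted p = 0.0551), and within the others -0.57 (adjusted p = 0.0155).

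Slc38a1 and Slc38a2 encode SNAT1 and SNAT2, sodium-coupled importers of glutamine and other small neutral amino acids, and they are neighbours on chromosome 15. Slc38a1 (96571418 to 96642913, minus strand) had 92.2, 96.0, 108, 86.2 and 88.5 CPM in vehicle and 82.5, 95.4, 65.9, 86.2 and 95.7 CPM in JHU083. Slc38a2 (96687392 to 96699730, minus strand) had 135, 176, 184, 147 and 131 CPM in vehicle and 190, 171, 114, 183 and 191 CPM in JHU083. The groups overlapped for both genes, and JHU083 replicate 3 was the lowest of all 10 samples for each. The log2 fold change was -0.15 for Slc38a1 (95% interval -0.37 to 0.07, edgeR adjusted p = 0.279) and 0.13 for Slc38a2 (95% interval -0.16 to 0.43, adjusted p = 0.466). Without JHU083 replicate 3 these were -0.065 and 0.25 (adjusted p = 0.532 and 0.0523), and with library totals -0.22 and 0.053. Leaving out each sample in turn, Slc38a1 ranged from -0.19 to -0.065 and Slc38a2 from 0.078 to 0.25. Within the samples with the ribosomal loci at 0 they were -0.28 and 0.0091, and within the others -0.13 and 0.17.

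The ratios between the 3 carriers did not pass after adjustment. Slc1a5 relative to Slc38a2 was lower in JHU083 by 0.67 (-0.82 ± 0.34 against -1.49 ± 0.45, SD, n = 5, exact permutation p = 0.0397, adjusted p = 0.0529). Slc38a1 relative to Slc38a2 differed by -0.28 (adjusted p = 0.0529, exact permutation), and Slc1a5 relative to Slc38a1 by -0.39 (adjusted p = 0.0907, exact permutation). JHU083 replicate 3 bore on all 3: without it the differences were -0.85, -0.32 and -0.53, and each passed (adjusted p = 0.0254, 0.0272 and 0.0272, exact permutation). Leaving out vehicle replicate 2 also brought Slc38a1 over Slc38a2 past the threshold, at -0.32 (adjusted p = 0.0254, exact permutation).

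Gclc rose. It encodes the catalytic subunit of glutamate-cysteine ligase, the rate-limiting enzyme of glutathione synthesis. Gclc (chromosome 9, 77754535 to 77794485, plus strand) had 21.8, 22.3, 22.5, 18.3 and 21.4 CPM in vehicle and 25.8, 27.6, 26.5, 25.3 and 30.2 CPM in JHU083. The groups did not overlap, and vehicle replicate 4 and JHU083 replicate 5 were the extremes. On the log2 scale the rise was 0.35 ± 0.09 (SE, edgeR adjusted p = 0.0067). It had the same direction but did not pass within the samples with the ribosomal loci at 0 (0.34, adjusted p = 0.184) or within the others (0.32, adjusted p = 0.122). Gclm, the modifier subunit, whose locus also lists Gm6061, rose, with 14.1 ± 0.62 CPM without and 18.7 ± 4.24 CPM with the drug (SD, n = 5). Its log2 fold change was 0.41 ± 0.13 (SE, edgeR adjusted p = 0.0284). The ratio of the 2 subunit genes did not pass (difference -0.031, exact permutation p = 0.81, adjusted p = 0.81), with 0.23 to 0.84 in JHU083 and 0.45 to 0.72 in vehicle.

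A further 74 genes of the pathway were counted in 9 lists. Of these 73 were listed in the tables and 48 were abundant enough to be tested, with 7 higher and 15 lower in JHU083, against 18.4% and 18.3% of all loci. With library totals 5 were higher and 20 lower, where 1564 and 3141 of all 12500 loci were. Within the samples with the ribosomal loci at 0, 3 were higher and 7 lower, where 532 and 586 of all 12717 loci tested were. Within the others the counts were 3 and 11, where 1276 and 1542 of all 12935 loci were higher and lower. The median log2 fold change of the 48 was -0.18, against 0.01 for all loci. The genes not tested included 10 of 12 further plasma membrane carriers, among them Slc1a1, Slc1a2, Slc1a3 and Slc38a5, with at most 8 fragments in any sample. Slc7a11, the cystine-glutamate exchanger, was tested and did not pass (log2 fold change 0.28 ± 0.18, SE, edgeR adjusted p = 0.239).

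**Figure D4:**
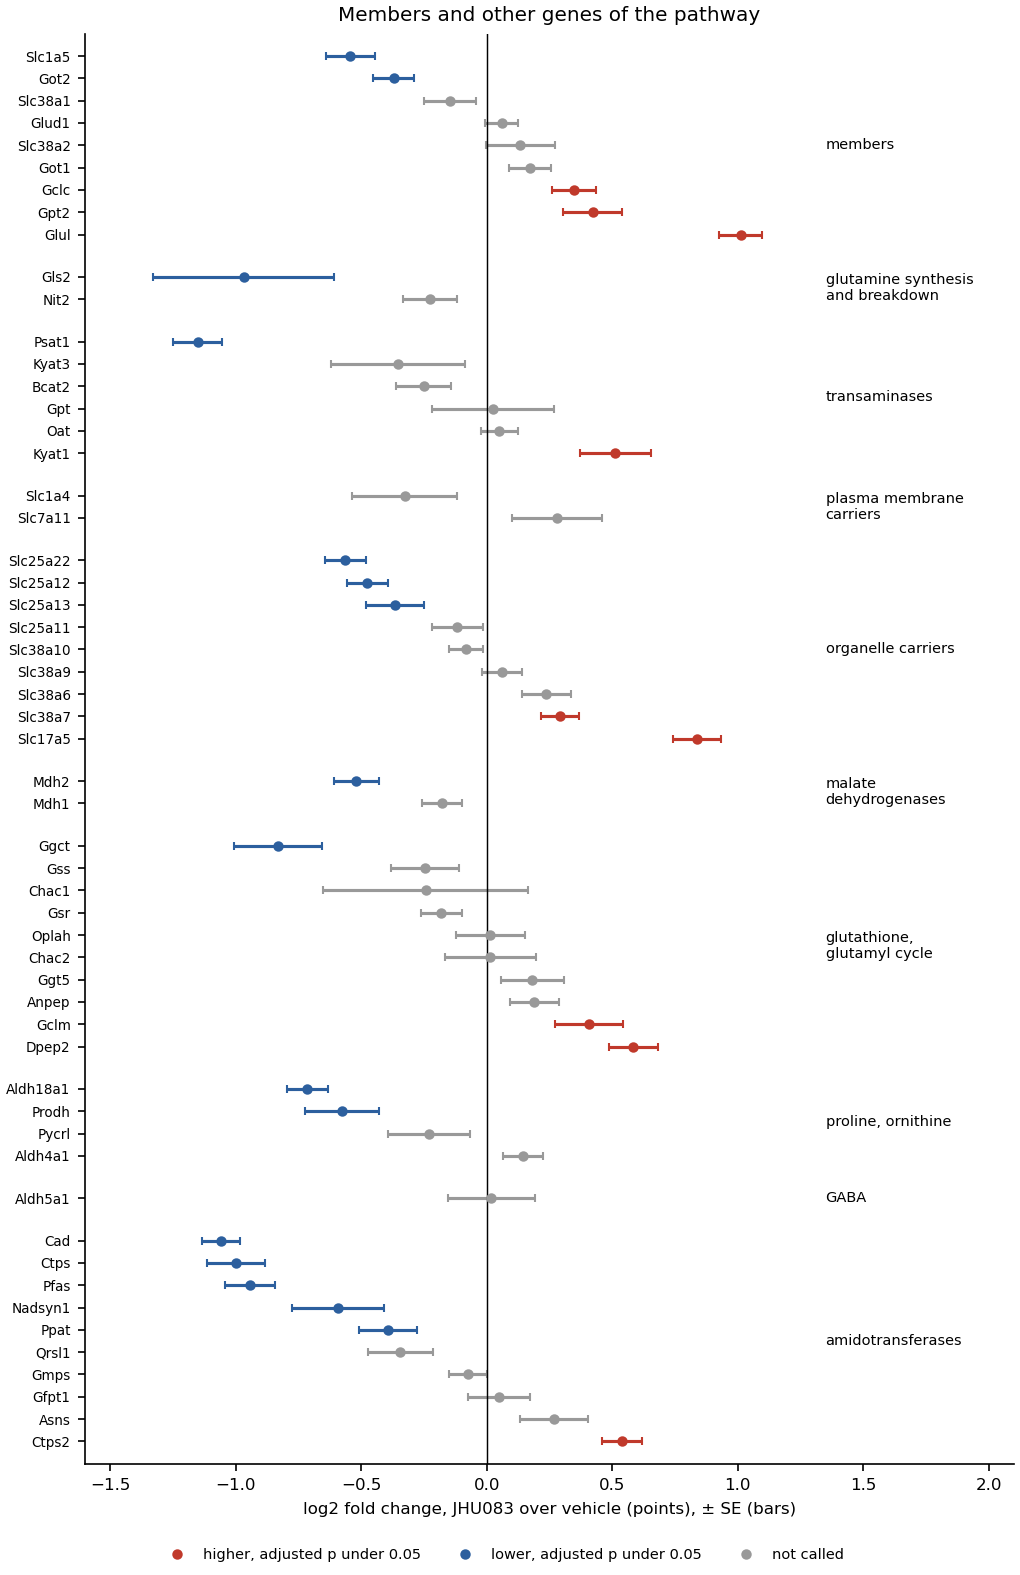
Log2 fold change of JHU083 over vehicle (horizontal axis; points, with bars for ± SE) for the 9 genes at the top and the 46 of the 48 tested genes of the other lists below (the other 2 are not shown), grouped by list and coloured by call (red higher, blue lower, grey not called). Glul is the largest increase at 1.01 and Psat1 the largest decrease at -1.15.

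Of 9 organelle carriers tested, 3 were lower and 2 higher, against 18.3% and 18.4% of all loci. Slc25a22, a mitochondrial glutamate carrier, fell from 24.4 ± 1.59 to 16.5 ± 0.29 CPM (SD, n = 5, log2 fold change -0.56, edgeR adjusted p = 0.00014). Slc25a12 and Slc25a13, the aspartate-glutamate carriers of the malate-aspartate shuttle, fell by 0.48 and 0.36 on the log2 scale (edgeR adjusted p = 0.00058 and 0.0242). All 3 had separate groups. Mdh2, the mitochondrial malate dehydrogenase of the same shuttle, fell by 0.52 (edgeR adjusted p = 0.00055), and cytosolic Mdh1 did not pass (-0.18, adjusted p = 0.0935). The 2 higher genes are lysosomal carriers. Slc17a5, which exports sialic acid and has been described as an aspartate and glutamate carrier, rose from 24.1 ± 2.43 to 43.0 ± 4.28 CPM (SD, n = 5, log2 fold change 0.84, edgeR adjusted p = 2.26e-05), and Slc38a7, a glutamine exporter of lysosomes, rose by 0.29 (adjusted p = 0.0077).

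Among the other transaminases, 1 of 6 tested was higher and 1 lower, near the shares of all loci (18.4% and 18.3%). Psat1, which uses glutamate as amino donor in serine synthesis, fell from a mean of 56.1 ± 4.87 CPM to one of 25.3 ± 3.08 CPM (SD, n = 5). On the log2 scale this was a change of -1.15 ± 0.10 (SE, edgeR adjusted p = 3.02e-06). Its groups did not overlap. Kyat1, a glutamine transaminase that also acts on kynurenine, rose by 0.51 (edgeR adjusted p = 0.0115) at low levels, 4.33 ± 0.08 against 6.18 ± 0.88 CPM (SD, n = 5).

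Of 5 tested genes that make or break down proline, 3 fell and none rose, against 18.3% and 18.4% of all loci. Aldh18a1, the enzyme that commits glutamate to proline and ornithine synthesis, fell from 36.9 ± 1.81 to 22.5 ± 1.81 CPM (SD, n = 5, log2 fold change -0.71, edgeR adjusted p = 2.11e-05). Prodh, which begins the breakdown of proline, fell by 0.58 (edgeR adjusted p = 0.0073). Of 10 other genes of glutathione synthesis and the glutamyl cycle, 2 rose and 1 fell, against 18.4% and 18.3% of all loci. Gclm rose, and so did Dpep2, a dipeptidase, at 0.58 (edgeR adjusted p = 0.00041). Ggct, a gamma-glutamylcyclotransferase, fell, at -0.83 (edgeR adjusted p = 0.0023). Aldh5a1 was the only gene of the list for 4-aminobutyrate that was tested, and it did not pass (0.018, edgeR adjusted p = 0.944).

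The glutamine amidotransferases transfer the amide nitrogen of glutamine and are a class of enzymes that the drug inactivates. Of 10 tested, 5 fell and 1 rose, against 18.3% and 18.4% of all loci. Cad, which starts pyrimidine synthesis, Ctps, which makes CTP, and Pfas, of purine synthesis (locus shared with Mir3062), fell by 1.06, 1.00 and 0.94 on the log2 scale (edgeR adjusted p = 8.38e-07, 2.5e-05 and 1.42e-05). Nadsyn1, the synthetase of NAD, fell by 0.59 (adjusted p = 0.0209), and Ppat, which begins purine synthesis, by 0.39 (adjusted p = 0.0172). Ctps2, a paralogue of Ctps, rose by 0.54 (adjusted p = 0.00017). Asns, asparagine synthetase, did not pass (0.27, adjusted p = 0.134).

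The tumour epithelial, endothelial (mostly Pecam1), NK cell and cell cycle sums separated the groups in the same direction as Slc1a5 and Got2. The fibroblast sums overlapped. The macrophage sum (mostly Lyz2 and C1qa), the mitochondrial share and the T cell sum (mostly Cd4) separated the groups in the direction of Glul and Gclc. The part of these in the results was not tested.

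**Figure D5:**
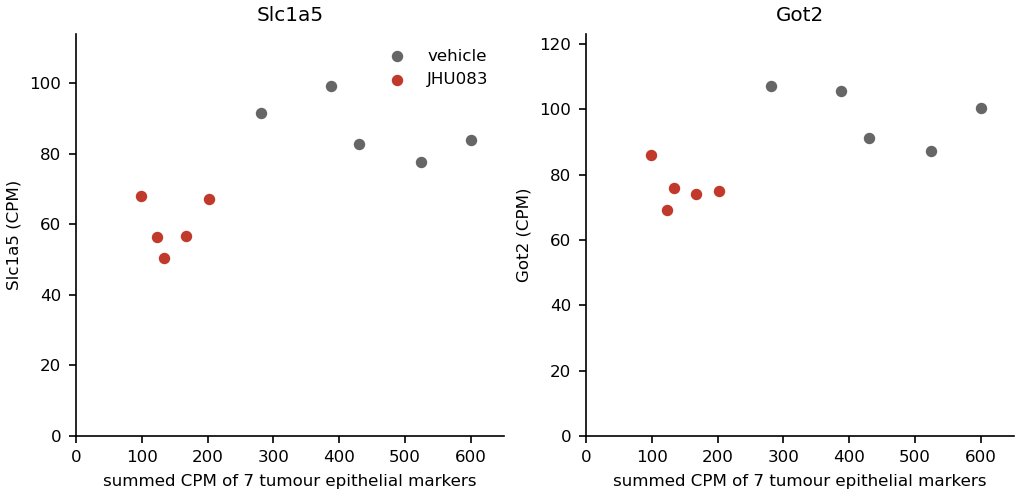
Slc1a5 (left) and Got2 (right) in CPM (vertical axes, starting at 0) against the summed CPM of 7 tumour epithelial markers (horizontal axes) in each vehicle (grey) and JHU083 (red) sample. The groups are separate on both axes, with the epithelial sum between 98.5 and 202 CPM in JHU083 and between 281 and 600 CPM in vehicle. Within each group the sample with the lowest sum had more of both genes than the sample with the highest sum. In vehicle these had 91.5 and 83.8 CPM of Slc1a5 and 107 and 100 CPM of Got2. In JHU083 they had 67.8 and 67.2 CPM of Slc1a5 and 86.0 and 75.0 CPM of Got2.

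Among 7253 other loci with an average log2 CPM of at least 4, the 5 whose log2 CPM followed that of Glul most closely over the 10 samples were Sepp1 (r = 0.99), Tsc22d3 (r = 0.99), Abcg1 (r = 0.98), Cpt1a (r = 0.98) and Pon2 (r = 0.98). These coefficients describe 10 samples in 2 groups and include the difference between the groups. Sepp1 encodes the selenium carrier selenoprotein P, Abcg1 a cholesterol exporter and Cpt1a the enzyme that brings fatty acids into mitochondria. Their log2 fold changes were 1.23, 0.99, 0.88, 0.78 and 0.72 in the order given, with edgeR adjusted p-values of 5.91e-06, 1.7e-05, 6.86e-06, 3.25e-05 and 6.82e-06. Because the 5 loci were picked for following Glul across both groups, these rises follow from the choice and are not separate evidence.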

How the data were processed

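Polyadenylated RNA of 10 sorted samples was made into sequencing libraries, per the labels' protocols. The submitters' processing notes name TopHat2 2.1.1, bcl2fastq 2.17.1.14, FastQC 0.11.2 and GRCm38; the counter and annotation are not given in the sources used here. The authors deposited estimated counts per locus, called raw counts per the file headers, that are not whole numbers. They are multiples of a step per sample (0.888 to 1.17); dividing by it gave values within 0.05 of a whole number for 99.8% to 99.96% of positive values, which were rounded and are called fragments. That the deposited second column is FPKM is inferred from the values. One locus without a symbol (at most 0.0021% of fragments) was left out.

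Loci were filtered with filterByExpr, normalised with TMM and tested with edgeR 4.0.16 (R 4.3.3) without covariates, calling an adjusted p under 0.05. The SE is the absolute log2 fold change over the square root of F. Log2 CPM has a prior count of 2. At these depths 3 fragments are at most 0.269 CPM. Simulated counts were used to test the fit. Alternatives used DESeq2 1.42.0, limma 3.58.1, other scalings and filters, FPKM, a replicate block, the ribosomal loci and leaving out each sample.

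The members, gene lists and tests were chosen with earlier results of these data known. Named genes are the 9 members, up to 4 called genes per list by size of change, Slc7a11, Gclm, Slc25a22, Slc25a12, Slc25a13 and Psat1, and the 5 loci most like Glul; the other genes named were chosen after their values were seen. Some genes that the rule takes in are not reported here, although the counts over lists include them. Positions are from GENCODE M21 by symbol. Python 3.11.15 and scipy 1.17.1 were used.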

Additional observations from a re-analysis of the deposited data

Results flagged for a closer look

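In 5 of the 34 groups of 5 values examined (the 9 genes and 8 ratios in each treatment), 1 sample lay far from the other 4, by a gap of more than 0.71 of the group's range; chance gives about 1 in 20, or 1.7. JHU083 replicate 1 had the lowest Glul, at 8.48 log2 CPM against 8.76 to 8.87, and the lowest Gpt2, at 4.78 against 5.22 to 5.40. JHU083 replicate 2 had the lowest Got1, at 6.88 against 7.23 to 7.36. JHU083 replicate 3 had the lowest Slc38a2, at 6.83 against 7.42 to 7.58. Vehicle replicate 4 had the lowest Gclc, at 4.21 against 4.43 to 4.50. No single sample was the one that stood apart for more than 2 of these genes.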

How the results depend on the processing

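Glul was called higher under all 22 alternatives (log2 fold change 0.91 to 1.27). Gclc, Got2 and Slc1a5 kept direction and call except within the sets of samples defined by the ribosomal loci, which hold 5 samples each. Within the samples at 0, 1 of the 9 genes was higher and 0 lower, and 3 of the pathway genes were higher and 7 lower, while the calls over all loci fell to 532 higher and 586 lower of 12717; Got2 (-0.29), Gpt2 (0.30), Slc1a5 (-0.54) and Gclc (0.34) lost the call, and Glul over Glud1 was 0.81. Within the other samples 3 pathway genes were higher (1276 of all 12935 loci), Gclc was 0.32 and lost the call, and Glul over Glud1 was 1.07. A ratio within 5 samples cannot reach an exact p under 0.1. Gpt2 also lost the call on FPKM, with 0.27 at a pseudocount of 0.1 and 0.25 at 1. Glud1 was -0.021 with scaling to library totals. The cause of these changes was not tested.

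Leaving out 1 sample at a time gave 3 to 4 members higher and 2 lower. Over all loci the fewest were 1821 higher and 1900 lower of 12616, without vehicle replicate 1. The most were 2899 and 2930 of 12675, without JHU083 replicate 3. Got1 ranged from 0.13 to 0.24. Slc38a1 over Slc38a2 ranged from -0.32 to -0.22, Slc1a5 over Slc38a2 from -0.85 to -0.56, Slc1a5 over Slc38a1 from -0.53 to -0.33 and Gclc over Gclm from -0.10 to 0.050. With the replicate number as a block, 3 members were higher and 2 lower, and 5 pathway genes were higher and 12 lower, with 1612 and 1757 of all 12500 loci; Glul was 1.01, and the ratios cannot reach an exact p under 0.0625. Same-numbered samples had correlations of -0.61 to -0.18 between their deviations from the group means, no sample matched its own number best, and the numbers were not used to pair. Loci under about 0.269 CPM cannot be compared at these depths.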
